A study of Mus musculus with 17 samples.

Results

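The proteasome genes described here are those whose array probe sets carry a single gene symbol beginning with Psma, Psmb, Psmc, Psmd, Psme, Psmf or Psmg and a number. The pattern was met by 49 genes with 103 probe sets, out of 18193 genes with a probe set of their own and 45037 probe sets in all. Of these, 47 were subunits, activators, inhibitors or assembly factors and were placed in 8 structural parts. The other two were Psmc3ip, a meiotic recombination factor named after its binding to a proteasome subunit, and Psme3ip1, which binds an activator of the proteasome, and both were kept out of the parts. The activator gene Psme2 shared its probe set with a second symbol and was not analysed. Each gene was represented by the probe set with the highest mean signal, and genes whose probe sets disagreed in the KO comparison are listed with their values.

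The proteasome is the protease that degrades proteins tagged with ubiquitin. Its core particle is a barrel whose outer rings of alpha subunits gate the entrance and whose inner rings of beta subunits carry the proteolytic sites. A regulatory particle caps the barrel, with a base of ATPases that unfold the substrate and a lid that removes the ubiquitin. Neurons depend on it for protein turnover over a long life and for adjustment of synaptic protein content.

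The study compared dentate gyrus of KO mice with that of WT controls on Affymetrix arrays. The KO mice carried floxed Foxo1, Foxo3 and Foxo4 alleles deleted by hGFAP-cre, a Cre that acts in common progenitors, so that neurons and glia both lost the 3 transcription factors while Foxo6 was left in place. The controls were labelled only WT. All mice were on a mixed FVB and B6 background. The tissue was captured by laser according to the study's methods, although the labels name only brain, and neither age nor sex is given for these samples. The comparison used 8 KO and 7 WT samples, each with a mark of its own that was read here as an animal, and 2 further samples whose marks end in CA13. P-values of the main comparison set a difference against the spread between the 8 KO and 7 WT samples. The 2 CA13-marked samples did not enter that comparison.

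Foxo1, one of the deleted genes, served as a check of the labels. Its normalized log2 values ran from 12.33 to 13.94 in WT and from 7.33 to 9.44 in KO, a difference of −5.08 (limma adjusted p = 1.16e-07). Markers did not follow the labels in every library. The mean of 12 granule neuron markers was 8.17 in the KO library labelled 433 and 8.10 in the WT library labelled 437CA13, against 11.23 to 11.46 in the other 15, among them 433CA13 at 11.30. The mean of the 11 measured markers of CA pyramidal neurons, out of 13 listed, was 10.37 and 10.22 in the same pair of libraries, against 7.82 to 8.51 elsewhere. Oligodendrocyte markers, of which 7 of 8 listed were measured, averaged 10.41 ± 0.38 in KO and 9.90 ± 0.54 in WT (SD, n = 8 and 7). Astrocyte markers averaged 10.54 ± 0.21 and 10.48 ± 0.22. An unadjusted limma p under 0.05 was reached by 3 of 7 oligodendrocyte, 2 of 12 granule neuron and 1 of 11 CA pyramidal markers. It was reached by 0 of the astrocyte, microglia and interneuron markers. Of all genes, 1.53% were higher and 1.52% lower in KO at that threshold. The part of the oligodendrocyte difference in the results below was not tested. The 15 samples also fell into 2 array series by the number in their labels, a larger one of 11 samples and a smaller one of 4 samples, 2 of each genotype. The log2 ratio of 3′ to 5′ Gapdh control probe sets ran from 5.04 to 6.41 in KO and from 5.11 to 6.23 in WT.

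To ask whether loss of FOXO altered the level of proteasome transcripts, KO was compared with WT for every gene. No proteasome probe set passed an adjusted p of 0.05 in limma, while 6 of 45037 probe sets did (0.0133%). The median log2 difference, KO minus WT, was 0.01 over the 47 genes and 0.01 over all 18193 genes. The differences ran from −0.48 for Psmc4 to 0.31 for Psmd7, with 26 above 0 and 21 below. At an unadjusted p under 0.05, Psmd11 alone was higher in KO (1.53% of all genes were) and Psmg4 alone was lower (1.52% of all genes were), so the members' counts lay close to the background. Without library 433 the counts were again 1 higher (1.81% of all genes) and 1 lower (1.77% of all genes), with Psmc4 in place of Psmg4. Significance analysis of microarrays (SAM) called 0 proteasome probe sets and 7 of 45037 in all (0.0155%). No proteasome gene had all KO samples above all WT samples, as 1 gene did in all (0.0055%), and none had all KO samples below, as 3 genes did (0.0165%).

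The limits on the size of a change were narrow for most of the genes. The 95% confidence interval of the difference lay within 1.5-fold in either direction for 35 of 47, against 57.1% of all genes. The proteasome genes also had higher signals, with a median of 1016 against 202 over all genes, and smaller standard errors, with a median of 0.167 against 0.197 on the log2 scale. The 12 genes with an interval reaching past 1.5-fold were 4 of 5 inducible or tissue-specific core subunits, 3 lid subunits, 2 ATPases, 2 assembly factors and 1 beta subunit. In bulk tissue of this kind, fewer cells of a type and less RNA per cell cannot be told apart.

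**Figure D1:**
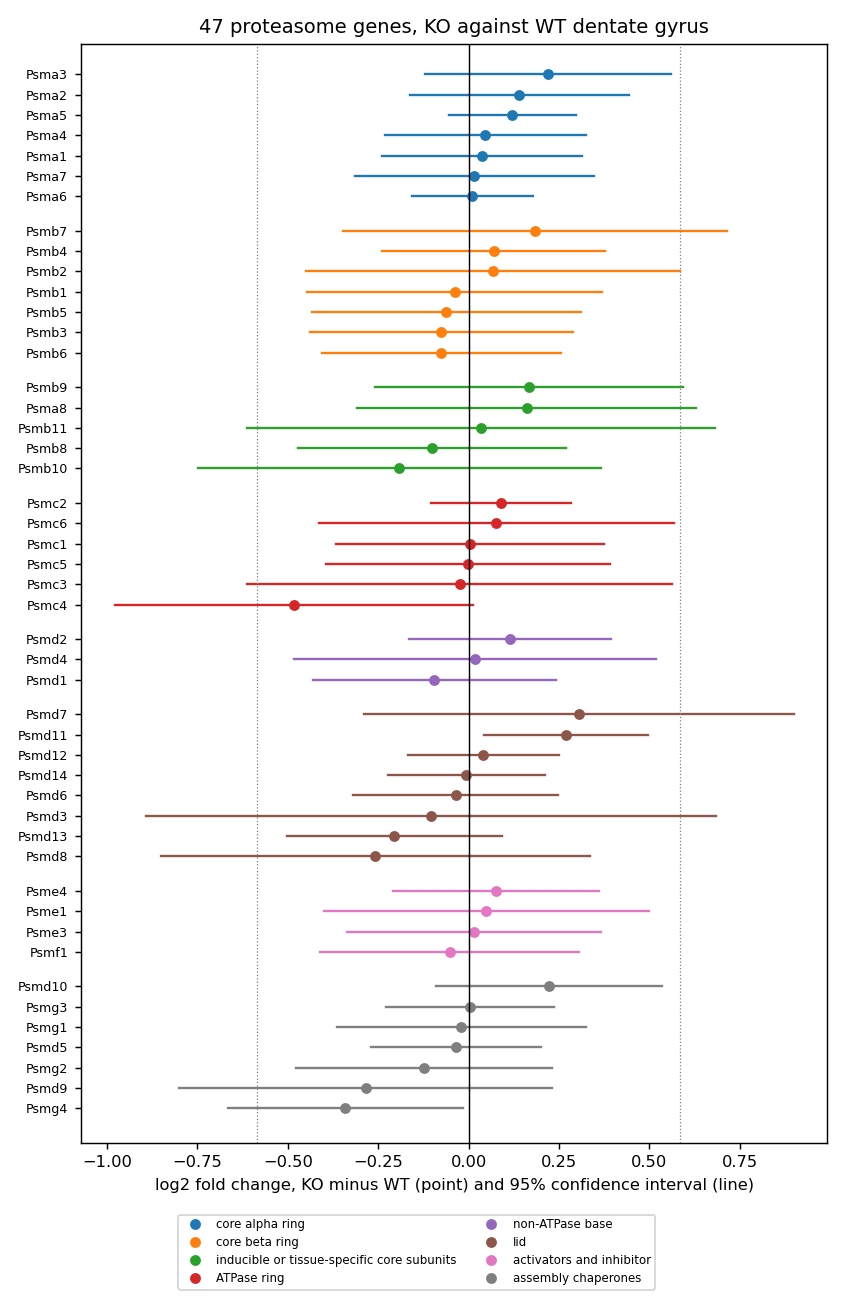
Log2 fold change, KO minus WT, of the 47 proteasome genes by structural part. Points are limma estimates from 8 KO and 7 WT samples, lines are 95% confidence intervals and dotted lines mark 1.5-fold. The interval of Psmd11 lies above 0, that of Psmg4 below 0, and all others cross 0.

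The core particle was described by ring. The 7 alpha ring genes, whose products form the gate of the barrel, had a median difference of 0.05 and all 7 estimates were above 0, as were 52.4% of all genes. Without library 433, 6 of 7 were above 0 (median 0.09), and with 433CA13 in its place 7 of 7 were (median 0.11). In the larger array series alone 5 of 7 were above 0 (median 0.02), and in the smaller 6 of 7 (median 0.16). Psma3, an outer ring subunit, ran from 12.73 to 13.94 (median 13.48) in WT and from 13.43 to 14.11 (median 13.55) in KO, and the ranges overlapped. Its difference was 0.22 (SE 0.16, 95% interval −0.12 to 0.56). Psma5, another alpha subunit, ran from 13.58 to 13.92 (median 13.79) in WT and from 13.79 to 14.05 (median 13.89) in KO. Its difference of 0.12 (SE 0.08) reached an unadjusted p of 0.043 in the exact two-sided permutation test over the 15 samples and 0.167 in limma. The remaining alpha subunits lay between 0.01 for Psma6 and 0.14 for Psma2.

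The 7 constitutive beta subunits, of which Psmb5, Psmb6 and Psmb7 encode the proteolytic ones, had a median difference of −0.04, with 3 above 0 and 4 below. Psmb5, which carries the chymotrypsin-like activity, ran from 12.54 to 13.18 (median 12.91) in WT and from 12.04 to 13.35 (median 12.92) in KO. The KO range enclosed the WT range, and the difference was −0.06 (SE 0.18). Psmb6, of caspase-like activity, ran from 12.74 to 13.67 (median 12.97) in WT and from 12.63 to 13.50 (median 12.94) in KO, a difference of −0.08 (SE 0.16). Psmb7, of trypsin-like activity, differed by 0.18 (SE 0.25), and its interval reached from −0.35 to 0.71. The structural subunit Psmb4 differed by 0.07 (SE 0.15). For the proteolytic subunits the groups overlapped throughout.

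The inducible and tissue-specific core subunits replace constitutive ones in immune cells, thymus or testis. Psmb10, an immunoproteasome subunit, was measured at a mean signal of 479 and had a median of 8.82 (highest 10.07) in WT and of 8.90 (highest 9.41) in KO, a difference of −0.19 (SE 0.26). The other immunoproteasome subunits were dim. Psmb8 had a mean signal of 33.9 and Psmb9 of 66.5, with differences of −0.10 (SE 0.18) and 0.17 (SE 0.20). Psmb11, the thymus-specific subunit, and Psma8, the testis-specific one, had mean signals of 48.5 and 32.5 and differences of 0.04 (SE 0.31) and 0.16 (SE 0.22). The difference of Psmb11 was −0.15 without library 433 and −0.07 with 433CA13 in its place. A filter requiring a signal of 64 in at least 7 samples removed Psmb8, Psmb11 and Psma8 and kept 44 of the 47 genes.

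Within the ATPase ring, which unfolds substrates and threads them into the core, the median difference was 0.00 and Psmc4 stood at the lower end. Psmc4 ran from 11.54 to 13.34 (median 12.23) in WT and from 11.22 to 12.26 (median 11.85) in KO. The highest WT value came from the sample marked 392, and the groups overlapped between 11.54 and 12.26. The difference was −0.48 (SE 0.24, 95% interval −0.98 to 0.01), with an unadjusted limma p of 0.055 and an exact permutation p of 0.083. Without library 433 the difference was −0.55 (unadjusted limma p = 0.035, exact permutation p = 0.061), and without the WT sample 392 it was −0.31 (exact permutation p = 0.186). The second probe set of Psmc4 gave −0.12 (SE 0.19). Psmc2, another ATPase, differed by 0.09 (SE 0.09), and the other 4 lay between −0.02 and 0.08.

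The non-ATPase subunits of the base hold ubiquitin receptors and the scaffold for shuttle proteins. Psmd2, a scaffold, ran from 9.71 to 10.30 (median 9.90) in WT and from 9.70 to 10.47 (median 10.08) in KO, a difference of 0.11 (SE 0.13). Psmd1, the other large scaffold, differed by −0.10 (SE 0.16) and Psmd4, a ubiquitin receptor, by 0.02 (SE 0.24).

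The lid gave the gene with the smallest p among the 47. Psmd11, a lid subunit that stabilizes the attachment of lid to base and is known as Rpn6, ran from 12.58 to 13.22 (median 12.94) in WT and from 12.89 to 13.39 (median 13.19) in KO. In KO 7 samples lay between 13.12 and 13.39 and the sample marked 903 lay at 12.89, while in WT 6 samples lay between 12.58 and 13.04 and the sample marked 206 lay at 13.22. The difference was 0.27 (SE 0.11, 95% interval 0.04 to 0.50), with an unadjusted limma p of 0.022, an adjusted p of 1.00 and an exact permutation p of 0.013. Without library 433 it was 0.28 (exact permutation p = 0.018), and with 433CA13 in its place 0.31 (exact permutation p = 0.009). Without the WT sample marked 41, the lowest of its group, it was 0.21, with an unadjusted limma p of 0.062 and an exact permutation p of 0.030. Each array series alone gave 0.26 and 0.31.

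The other 7 probe sets of Psmd11 did not repeat this difference as a group, since 5 of them had the opposite sign. The second brightest, with a mean signal of 4114, gave −0.07 (SE 0.12), and the next, at 559, gave 0.06 (SE 0.14). Of the 5 remaining probe sets, all with a mean signal under 64, one at 20.2 gave −0.57 (exact permutation p = 0.008) and one at 22.2 gave 0.39 (exact permutation p = 0.043). The mean over all 8 probe sets gave −0.11. Disagreement of this kind was common on these arrays. Of the 26 proteasome genes with several probe sets, 14 had differences of both signs (53.8%), against 60.9% of 9010 genes.

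Besides Psmd11, the genes with differences of both signs were Psma1, Psma6, Psma7, Psmb8, Psmc2, Psmc6, Psmd2, Psmd4, Psmd7, Psmd13, Psme4, Psmf1 and Psmg2. In the alpha ring, the probe sets with the opposite sign gave −0.10 and −0.19 for Psma6, −0.20 for Psma7 and −0.04 for Psma1. In the ATPase ring and base they gave −0.07 for Psmc2, −0.01 for Psmc6, −0.08 for Psmd2 and −0.01 for Psmd4. Of the opposite values above 0, the largest were 0.43 for Psmg2, at a mean signal of 39.5, and 0.24 for Psmb8, at 22.0. Those of Psmd7 were −0.32 and −0.29. Psme4 had 3 probe sets of the opposite sign, at −0.21, −0.03 and −0.29, Psmd13 had 2, at 0.03 and 0.09, and Psmf1 had 1, at 0.03. Apart from those of Psmd11, none of the opposite values reached an unadjusted limma p of 0.05.

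Among the remaining lid genes, Psmd13 differed by −0.21 (SE 0.14), with the lowest KO value in library 433, and by −0.13 without that library. Psmd7, a partner of the deubiquitinase subunit, gave the highest estimate of all 47 at 0.31 (SE 0.28), and its 2 other probe sets gave −0.32 and −0.29. Psmd14, the deubiquitinase that strips ubiquitin from substrates, ran from 13.91 to 14.51 (median 14.35) in WT and from 14.03 to 14.46 (median 14.32) in KO. Its difference was −0.01 (SE 0.10, 95% interval −0.22 to 0.21). Psmd6 and Psmd12, structural subunits of the lid, gave −0.04 and 0.04.

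**Figure D2:**
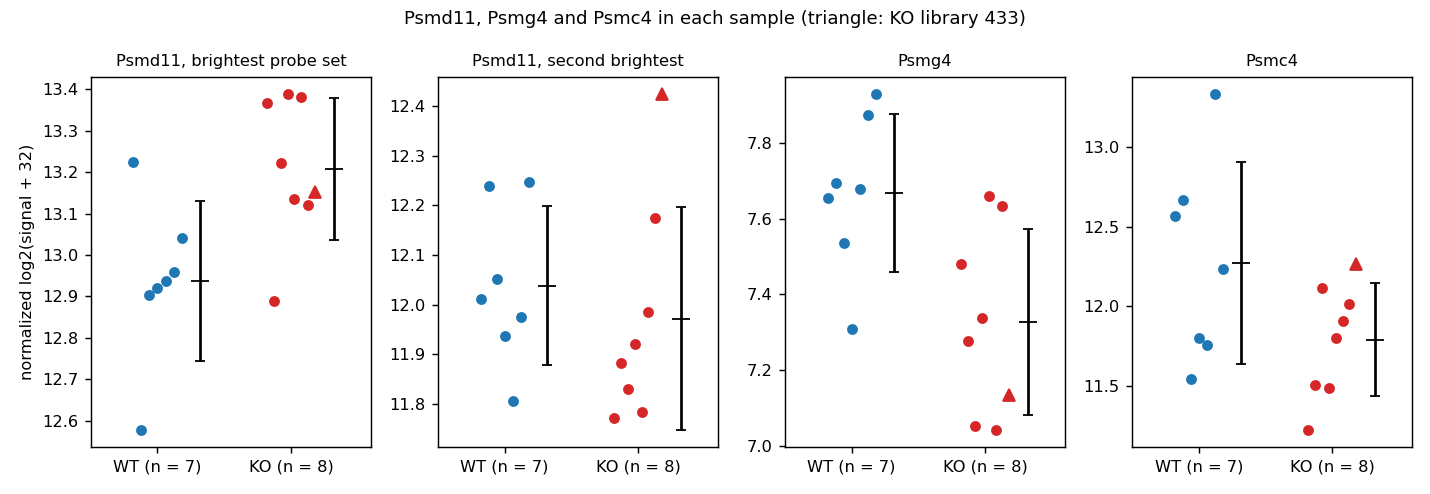
Normalized log2(signal + 32) of 2 probe sets of Psmd11 and of the chosen probe sets of Psmg4 and Psmc4 in each of 7 WT (blue) and 8 KO (red) samples. Bars give the mean and SD, and triangles mark KO library 433. WT and KO overlap in all 4 panels, and the second brightest probe set of Psmd11 does not show the higher KO mean seen in the brightest.

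The activators open the core particle without ubiquitin recognition, and Psmf1 encodes an inhibitor of the core. Psme1, a subunit of the interferon-induced activator, differed by 0.05 (SE 0.21), and Psme3, the nuclear activator, by 0.02 (SE 0.17). Psme4, the large activator also called PA200, ran from 10.75 to 11.65 (median 11.31) in WT and from 11.01 to 11.66 (median 11.33) in KO, a difference of 0.08 (SE 0.14). Psmf1 differed by −0.05 (SE 0.17). No interval in the group reached past 1.5-fold.

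The assembly factors build the rings and are absent from the mature particle. Psmg4, a chaperone of alpha ring assembly, ran from 7.31 to 7.93 (median 7.68) in WT and from 7.04 to 7.66 (median 7.31) in KO. Of 8 KO samples, 6 lay below 7.50, as did the WT sample marked 385, so the groups overlapped. The difference was −0.34 (SE 0.15, 95% interval −0.66 to −0.02), with an unadjusted limma p of 0.041, an adjusted p of 1.00 and an exact permutation p of 0.015. Without library 433 it was −0.31 (unadjusted limma p = 0.065, exact permutation p = 0.026), and with 433CA13 in its place −0.28 (unadjusted limma p = 0.089, exact permutation p = 0.042). The second probe set, at a mean signal of 17.8, gave −0.05 (SE 0.20).

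The other chaperones of ring assembly had estimates nearer to 0 than Psmg4. Psmg3, its partner, differed by 0.00 (SE 0.11, 95% interval −0.23 to 0.24), Psmg1 by −0.02 (SE 0.16) and Psmg2, the partner of Psmg1, by −0.12 (SE 0.17). The chaperones of the ATPase ring spread more widely. Psmd10, also called gankyrin, ran from 7.25 to 8.05 (median 7.83) in WT and from 7.72 to 8.34 (median 7.93) in KO, a difference of 0.22 (SE 0.15). Psmd9 differed by −0.28 (SE 0.25), with the WT sample marked 392 far above the others at 10.96, and Psmd5 by −0.03 (SE 0.11).

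Sequences just before the gene starts are shown for the members nearest to a difference, Psmd11 and Psmg4, and for Psmb5 as a catalytic subunit that holds a motif. They are 250 bases from RefSeq on build GRCm38.p6, written along the gene's strand, and capitals mark a match to the antioxidant response element TGACNNNGC. Psmd11 lies on the plus strand at chr11:80428365-80428614, Psmg4 on the plus strand at chr13:34162714-34162963 and Psmb5 on the minus strand at chr14:54617996-54618245.
Psmd11: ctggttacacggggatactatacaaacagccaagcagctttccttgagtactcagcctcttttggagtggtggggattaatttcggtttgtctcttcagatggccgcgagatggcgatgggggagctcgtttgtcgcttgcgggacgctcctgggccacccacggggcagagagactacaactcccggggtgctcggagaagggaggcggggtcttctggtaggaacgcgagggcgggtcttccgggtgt
Psmg4: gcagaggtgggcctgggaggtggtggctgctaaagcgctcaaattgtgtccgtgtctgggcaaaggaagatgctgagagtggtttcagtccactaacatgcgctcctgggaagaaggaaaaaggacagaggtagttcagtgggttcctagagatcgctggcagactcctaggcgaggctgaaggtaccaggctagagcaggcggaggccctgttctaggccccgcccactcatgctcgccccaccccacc
Psmb5: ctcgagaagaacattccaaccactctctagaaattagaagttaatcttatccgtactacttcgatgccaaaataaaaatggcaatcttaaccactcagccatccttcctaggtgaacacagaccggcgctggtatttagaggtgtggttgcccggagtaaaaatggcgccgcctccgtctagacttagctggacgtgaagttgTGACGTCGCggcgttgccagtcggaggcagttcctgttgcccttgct

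Of the 47 genes, 39 matched a RefSeq promoter, with 41 windows of 250 bases before to 50 after a gene start. Both strands were searched. The FOXO binding element GTAAACA was in 0 of the 41 windows, and 3.65% of all 32851 windows held it. The antioxidant response element TGACNNNGC was in 6 windows (14.6%), those of Psmb5, Psmb6, Psmc6, Psmd9, Psmd12 and Psme4, against 12.4% of all windows. The CCAAT box was in 14 windows (34.1%), against 37.4%. The windows of Psmd11 and Psmg4 printed above held none of the 3.

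Genes that act with the proteasome were examined in the same way. Of 29 listed, 20 had a probe set of their own, none was called after adjustment and none reached an unadjusted limma p of 0.05. The highest estimates were those of Rad23b, a shuttle for ubiquitinated proteins, at 0.31 (SE 0.21), and of Usp14, a deubiquitinase bound to the base, at 0.26 (SE 0.16). Nfe2l1, the transcription factor that raises proteasome genes when the proteasome is inhibited, differed by −0.19 (SE 0.22). Pomp, the maturation factor of the core, differed by 0.17 (SE 0.14) and Sem1, a small lid subunit, by −0.14 (SE 0.14).

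Proteasome genes also differed between the array series. This comparison was chosen after the data were seen, and the sources used here do not say what distinguishes the series. The Gapdh 3′ to 5′ log2 ratio moved with the series, running from 5.11 to 5.37 (median 5.30) in the smaller and from 5.04 to 6.41 (median 5.72) in the larger, where 9 of 11 samples lay above all of the smaller, and its part in the differences was not tested. With genotype in the model, 9 proteasome genes were higher in the smaller series at a limma adjusted p under 0.05 (6.35% of all genes were) and 2 were lower (4.29% of all genes were). The median difference, smaller minus larger series, was 0.17 over the 47 genes and 0.07 over all genes. Of the 7 beta ring genes, 4 were higher and 1 was lower, with a median of 0.55, while no alpha ring gene was called and their median was −0.06.

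Psmb6 had the smallest standard error of the beta genes called. It ran from 13.34 to 13.67 in the 4 samples of the smaller series and from 12.63 to 13.06 (median 12.91) in the larger, with no overlap, and differed by 0.61 (SE 0.10). The structural beta subunits Psmb1 and Psmb2 also had no overlap. Psmb2 ran from 9.93 to 10.41 in the smaller series and from 8.83 to 9.75 (median 9.17) in the larger, a difference of 0.91 (SE 0.17), and Psmb1 differed by 0.64 (SE 0.15), while its 2 other probe sets gave 0.30 and −0.19. Psmb3 differed by 0.55 (SE 0.14) with a slight overlap. Psmb4 was lower by a difference of −0.43 (SE 0.13), and its second probe set gave 0.44.

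Outside the beta ring 2 lid genes, 1 ATPase, 1 inducible core subunit and 1 assembly chaperone were called higher, and 1 ATPase lower. No gene of the non-ATPase base or of the activators and inhibitor was called, and their median differences were 0.33 and 0.28. Psmd3, a structural lid subunit, ran from 8.38 to 9.45 in the smaller series and from 6.69 to 8.17 (median 7.54) in the larger, a difference of 1.35 (SE 0.28). Psmc3, an ATPase, ran from 11.19 to 11.92 and from 9.79 to 11.16 (median 10.65), a difference of 1.03 (SE 0.20). Psmc6, the ATPase that went the other way, ran from 10.97 to 12.15 and, in the larger series, upward from 12.18 (median 12.47), with no overlap and a difference of −0.78 (SE 0.19), and its 2 other probe sets gave −0.48 and −0.38. Psmd8 (0.90), Psmb10 (0.78) and Psmd9 (0.73) were the others that were higher, and the 2 other probe sets of Psmd9 gave 0.65 and 0.00. Without the KO sample 390 the genes called were Psmb2, Psmb6, Psmc3 and Psmd3, and without the WT sample 392 they were these 4 and Psmb1, all of them higher. Both samples belong to the smaller series. Without library 433 the same 11 genes were called.

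**Figure D3:**
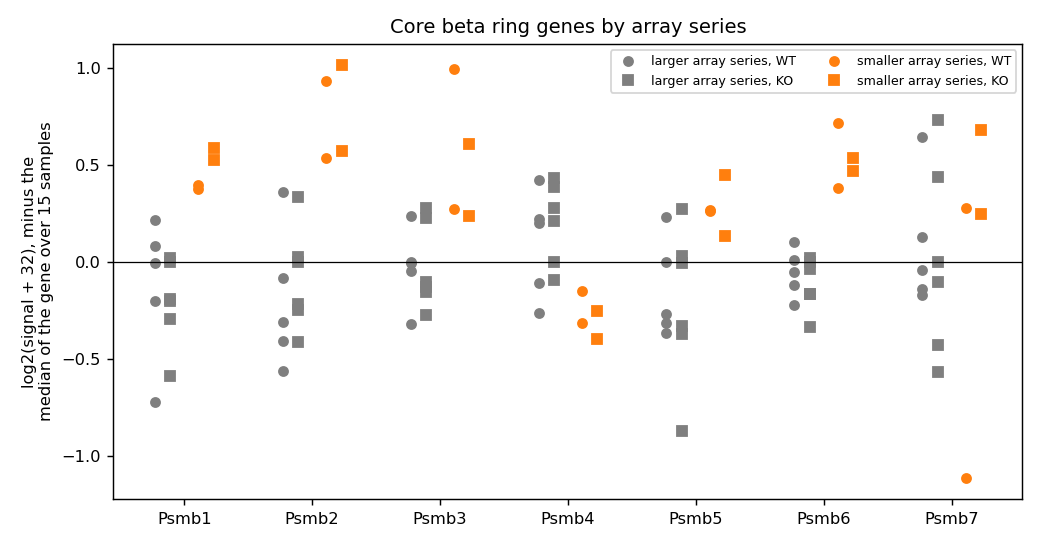
Normalized log2(signal + 32) of the 7 core beta ring genes, minus each gene's median over the 15 samples, by array series (grey larger, orange smaller) and genotype (circles WT, squares KO). For Psmb1, Psmb2 and Psmb6 the 4 samples of the smaller series lie above all 11 of the larger, whereas those of Psmb4 lie low.

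The series held both genotypes, so the comparison of KO with WT could be made within each. In the larger series 0 of the 47 genes were higher and 0 lower at an unadjusted limma p under 0.05, where 2.19% and 1.69% of all genes were. In the smaller series the counts were likewise 0 and 0, where 1.48% and 2.11% of all genes were. With the series as a block in the model, Psmd11 was higher and Psmg4 lower at that threshold, as were 2.05% and 1.79% of all genes. None of these counts stood far from its background.

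How the proteasome genes varied together was described over the 15 samples after genotype means were removed. The median Pearson r was 0.13 over 125 pairs within a part, 0.09 over 956 pairs between parts and 0.02 between the proteasome genes and all other genes. By part it ran from −0.43 within the non-ATPase base (3 pairs) to 0.32 within the activators and inhibitor (6 pairs). It was 0.25 within the alpha ring, 0.16 within the beta ring, 0.03 within the ATPase ring and −0.06 within the lid. All pairs share the same 15 libraries and their array series, and these values are a description.

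Granule and CA fields could be set side by side only through the libraries labelled 433 and 437CA13, in which CA pyramidal markers were high. With 1 KO and 1 WT library of this profile there was no test. Of the 47 genes, 3 lay above the range of the other 15 libraries in both (6.88% of all genes did) and 1 lay below (5.25% of all genes did). Each of the libraries could also be compared with the other library of its mark. The differences, 437CA13 minus 437 and 433 minus 433CA13, had medians of −0.03 and −0.02 over the proteasome genes.

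The size of the differences was compared with that over all genes. The median absolute difference of the proteasome genes was 0.22 in mark 437 and 0.18 in mark 433, against 0.37 and 0.35 over all genes. A difference above 1 in size on the log2 scale was seen for 1 of 47 proteasome genes in mark 437, the dim Psmb11. In mark 433 it was seen for 0 of 47. Of all 18193 genes, 2418 in mark 437 and 2189 in mark 433 had such a difference, a larger share in each mark. The differences had the same sign in both marks for 22 of 47 proteasome genes (46.8%). They did so for 11643 of all 18193 genes, which is a larger share.

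The genes outside the range were given with their other probe sets. Psmb11 had signals of 159 in 433 and 156 in 437CA13, against 13.1 to 92.7 in the other 15 libraries. Because signals this low are near the added 32, which sets the size of a log2 difference there, no size is given for it. Psmb4 was at 14.11 in 433 and 14.27 in 437CA13, against 13.28 to 14.10. Psmd6 was at 14.20 and 14.26, against 13.24 to 14.01. For Psmb4 and Psmd6 the second probe set lay inside the range and its differences were negative, from −0.04 to −0.18. Psmd13 was lower, at 7.83 and 7.47 against 8.20 to 8.78, with a difference of −0.94 in each mark, while its 3 other probe sets lay inside the range.

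Of the 20 measured genes that act with the proteasome, 2 (Usp14 and Rad23b) were above the range in both libraries and 0 below. Of all genes, 6.88% were above and 5.25% below. Usp14 was at 12.61 in 433 and 12.89 in 437CA13, against 11.44 to 12.36 in the others, and Rad23b at 10.80 and 10.82, against 9.21 to 10.61. Library 433 is also one of the 8 KO samples behind the KO estimates of both genes given above, and its part in them was not tested.

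**Figure D4:**
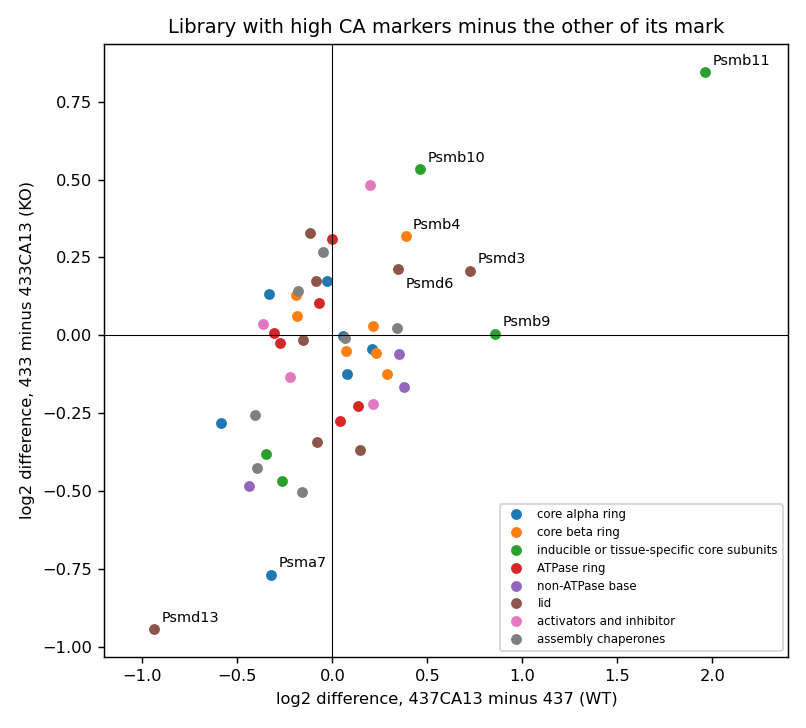
Log2 difference between the library with high CA markers and the other library of its mark, for WT mark 437 (x axis) and KO mark 433 (y axis), for the 47 proteasome genes coloured by part. Most points lie within 0.5 of 0 on both axes, the dim Psmb11 lies to the upper right, where its place depends on the added 32, and Psmd13 lies at −0.94 on both.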

How the data were processed

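RNA from 17 laser-captured samples was hybridised to Affymetrix Mouse Genome 430 2.0 arrays. The deposited values are linear signal intensity per probe set. The submitters' processing notes name MAS5, whereas the study's methods name RMA, which could not be repeated from the values used here. All arrays have the same trimmed mean signal. The values ran from 0.112 to 94033, so they were treated as linear. They were set to log2(signal + 32), quantile normalized over the 15 unmarked samples (over all 17 for the CA13-marked samples) and tested for KO against WT with limma's moderated test with an intensity trend (R 4.3.3, limma 3.58.1, Benjamini-Hochberg adjustment over 45037 probe sets). The code was tested on simulated data. SAM used 100 permutations. Exact permutation tests were two-sided over all 6435 assignments of 15 samples to genotypes, with p-values not adjusted. Precision is limited by the number of arrays.

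Groups came from the labels, and all 17 columns were used. Probe sets were named through the platform annotation, and those with several symbols were left out. The members and gene lists were chosen with earlier results of these data known. Genes given with values were the 2 with the smallest p in each part, those with an unadjusted p under 0.05, those outside the range in both CA-profile libraries, all inducible subunits, activators and assembly factors, and Psmd11 and Psmc4; others are named as examples of a part's function or because they lay at the end of a range. Between array series, genes past the threshold were named. Alternatives were the pseudocount (1, 128), median scaling, a filter on dim probe sets, the mean over probe sets, array weights, a Gapdh ratio covariate, the array series as a block and alone, SAM, an unpaired test, library 433 left out or replaced, and each sample left out. Gene starts and promoters are from RefSeq on GRCm38.p6.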

Additional observations from a re-analysis of the deposited data

Results flagged for a closer look

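The 47 proteasome genes were examined in 94 groups, each gene in the KO and in the WT samples, for a sample far from the rest. Such a sample was found in 7 of the 94 groups, where chance alone gives about 1 group in 20. The groups share the same libraries, so they are not independent. The WT sample marked 392 accounted for 3 of the 7. It had the lowest value of Psma5 in its group, 13.58 with the next at 13.79, the highest of Psmd9, 10.96 with the next at 9.51, and the highest of Psmd8, 10.41 with the next at 9.13. The KO library labelled 433, in which granule neuron markers were low and CA pyramidal markers high, had the lowest value of Psmd13, 7.82, with the next at 8.22. The KO sample marked 390 had the lowest value of Psmc6, 11.54, with the next at 12.15. The KO sample marked 903 had the lowest value of Psmd7, 6.64, with the next at 7.54. The WT sample marked MS17 had the lowest value of Psmd4, 8.998, with the next at 9.43.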

How the results depend on the processing

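No proteasome gene passed an adjusted p of 0.05 between KO and WT in any of 30 alternatives, and the median difference of the 47 genes stayed between −0.02 and 0.07. The number higher in KO at an unadjusted p under 0.05 was 1 as reported and 0 in the larger array series alone, in the smaller array series alone, with the mean of all probe sets and under median scaling, and 2 in an unpaired test of each gene, which called 0 after adjustment. The number lower was 1 as reported, 0 in either array series alone, with the mean of all probe sets and with 433CA13 in place of 433, and 2 under median scaling (Psmc4 and Psmg4). With each sample left out in turn the number higher ran from 0 (without WT sample 41) to 1 and the number lower from 0 (without KO samples 903, 386 or 390 or WT samples 206, 41, 392 or MS17) to 2 (without WT samples 437 or 385). Without library 433 the counts were 1 and 1, but the lower gene was Psmc4. The median difference in the smaller series alone was 0.22 for the ATPase ring and 0.26 for the non-ATPase base. The number of genes outside the range in both CA-profile libraries was 7 over the 13 libraries of the larger series, 4 above (9.79% of all genes) and 3 below (7.21%), and 3 with the mean of all probe sets, where Psmb11 was above (5.86%) and Psmf1 and Psmg2 below (4.57%) while Psmb4, Psmd6 and Psmd13 were inside. Between array series, the number higher ran from 4 to 10 and the number lower from 0 to 2 with each sample left out, and the number lower was 1 with the mean of all probe sets, under median scaling and with a pseudocount of 1. The causes were not tested. Of 1313 alternative values of the 47 genes, 8 moved by more than the spread between samples, 7 of them in the smaller series alone. The filter on dim probe sets gave no value for Psma8, Psmb8 and Psmb11. No paired analysis was possible because no mark in the labels is shared between a KO and a WT sample.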
